A study of Mus musculus with 59 samples.

Results

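The data described here are 6 of the 59 mouse exon arrays of an indicator cell assay for amyotrophic lateral sclerosis (ALS), those titled NCAR101, NCAR102, NCAR103, HEMI104, HEMI105 and HEMI106, called this run here. In this assay the cells are the sensor. Embryoid bodies that contained spinal motor neurons, grown from 1 line of mouse embryonic stem cells with an HB9-eGFP motor neuron reporter, were exposed to mouse serum for 24 h, and total RNA was then measured. HEMI104, HEMI105 and HEMI106 received serum from male mice hemizygous for a mutant human SOD1 transgene (B6SJL background, labelled 9 weeks, before the onset of symptoms), here called carrier serum. NCAR101, NCAR102 and NCAR103 received serum from wild-type, non-carrier littermates of the same age. The cells were alike in both groups, so the comparison asks which transcripts of the embryoid bodies differed with the source of the serum. The arrays were taken as 1 differentiation run, and the other 53 arrays were taken as 8 further runs, 1 of them with serum labelled 10 weeks. The study describes assays in smaller groups than the 11 arrays of its largest run as grouped here, which may hold more than 1 batch. The study counts its sera by mice, but the labels do not state that each serum of this run came from a separate mouse. The p-values therefore measure the spread between arrays of the same run and serum, which may be technical in part. In the main fit this spread is taken from all 59 arrays. All non-carrier arrays have lower numbers than all carrier arrays, so that serum and any effect that followed the order of the numbers cannot be told apart. The embryoid bodies hold several cell types, and in such bulk RNA fewer cells of a type and less RNA per cell cannot be told apart.

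Responses to serum in this assay were studied for the transcription factors ATF4 and CHOP (encoded by Ddit3), which act in the integrated stress response. When amino acids are short, the endoplasmic reticulum is under stress or haem is lacking, kinases slow the start of translation, ATF4 is then made in larger amounts, and it switches on amino acid transporters, amino acid synthesis and aminoacyl-tRNA synthetases. Ribosomal protein genes respond to growth signals that act through mTOR, mainly at the level of translation. Genes for glucose uptake and glycolysis are switched on by the hypoxia-inducible factors when oxygen is low. The results below are ordered from the whole array to the ribosomal proteins, the hypoxia-inducible and glycolytic genes, the ATF4 genes and the neuronal genes.

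The 6 arrays resembled each other closely. Their median intensities lay between 157 and 163, and the mean Pearson correlation of an array with the 5 others of the run, across 19613 genes, was between 0.994 and 0.995. The within-group SD of a gene had a median of 0.0880 on the log2 scale, against 0.0694 to 0.152 in the other runs. HEMI106 stood apart on the second principal component of the 6 arrays (23.3% of the variance), at -18.1 against -0.169 to 9.42 for the others. On the first component (29.4%) NCAR101 and NCAR102 lay at -11.2 and -10.4, HEMI104 and HEMI105 at 11.9 and 12.9, and NCAR103 and HEMI106 between them at 1.19 and -4.37.

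Carrier serum minus non-carrier serum gave no gene past the threshold. Of 19613 genes tested with limma, in a fit that took the spread from all 59 arrays, 0 (percent called 0) had an adjusted p under 0.05, and the smallest adjusted p was 0.759. At an unadjusted p under 0.05 stood 899 genes, of which 400 were higher (2.04% of all genes) and 499 lower (2.54%) with carrier serum. A fit of the 6 arrays alone, with 4 residual degrees of freedom, also called 0 genes (smallest adjusted p 0.445), with 1898 at an unadjusted p under 0.05, 829 of them lower (4.23%). The median SE of a gene was 0.0705 in that fit and 0.104 in the fit of 59 arrays. The SEs printed beside genes come from the fit of 59 arrays, so they are not the spread of the 6 readings alone. The differences were small. Their SD over all genes was 0.126 on the log2 scale, 99 genes differed by more than 0.5 in size, and 4 of these had a mean intensity above that of the median gene. The largest of the 4, the histone gene Hist1h2bk, had log2 intensities of 10.96, 10.35 and 8.70 in NCAR101 to NCAR103 and 8.32, 7.84 and 8.93 in HEMI104 to HEMI106. The groups overlapped, NCAR101 and NCAR102 stood above the rest, and the difference was -1.64 (SE 0.639, limma adjusted p = 0.991). The median difference of all genes was 0.02, with dim genes slightly above 0 and bright genes slightly below it.

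**Figure D1:**
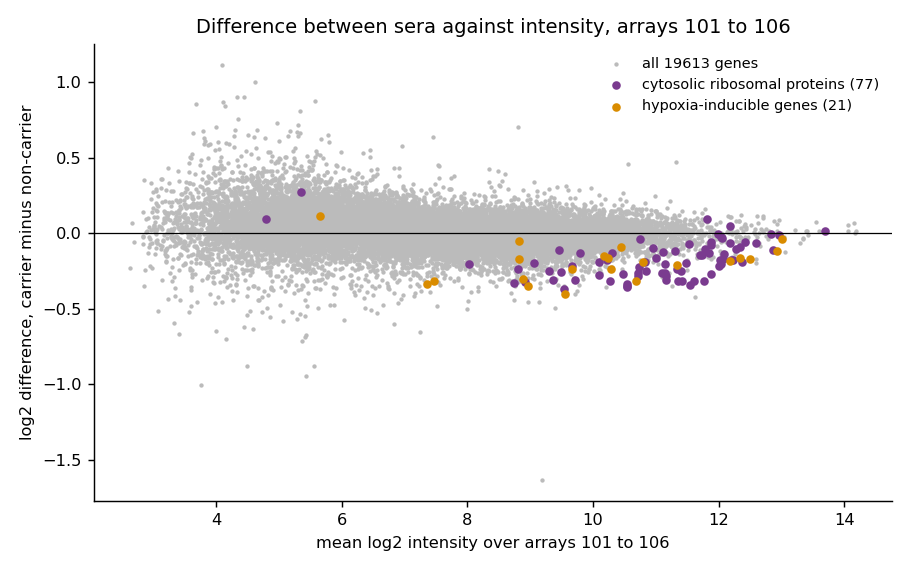
Each point is 1 of 19613 genes, with its mean log2 intensity over the 6 arrays on the x axis and the fitted log2 difference, carrier minus non-carrier, on the y axis. Cytosolic ribosomal protein genes (purple, 77) and hypoxia-inducible genes (orange, 21) lie mostly below 0, in a cloud whose spread narrows with intensity.

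The call of 0 genes depended on the variance model. When limma weighted each array by its estimated quality, 225 genes passed an adjusted p of 0.05, of which 153 were lower (0.78% of all genes) and 72 higher (0.367%) with carrier serum. NCAR101 to HEMI105 were given weights between 1.20 and 2.07 there and HEMI106 a weight of 0.679, while weights in the other runs went down to 0.102. The weighted count also hung on single arrays. Without NCAR101 it was 0, without NCAR102 it was 26, and without HEMI104 or HEMI105 it was 1, whereas it was 529 without NCAR103 and 192 without HEMI106. Hist1h2bk was among the genes that passed as lower (adjusted p = 0.0251 with array weights). These leave-one-out fits were added after the weighted result was seen. In what follows the unweighted fit is the main one, and weighted values are given where they change a call.

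Genes for cytosolic ribosomal proteins, the protein parts of the large (Rpl) and small (Rps) ribosomal subunits, lay mostly below 0 with carrier serum. Of 77 genes, 72 (93.5%) had a difference below 0, against 43.5% of all genes and 52.8% of genes about as bright. Genes about as bright are those in the 1 of 10 intensity groups that holds the median of the list. In 49 of the 77 (63.6%) all 3 carrier arrays lay below all 3 non-carrier arrays, against 8.07% of all genes and 14.6% of genes about as bright. In 1 (1.30%) all lay above, against 8.61% of all genes. The median log2 difference was -0.19, against 0.02 over all genes. At an unadjusted limma p under 0.05 stood 35 of the 77 (45.5%, against 2.54% of all genes), all lower, and none passed after adjustment. In the fit of the 6 arrays alone 41 did so as lower (53.2%, against 4.23% of all genes) and 1 as higher. With array weights 22 of the 77 (28.6%, against 0.78% of all genes) passed as lower, and 0 as higher. The weighted count of lower members was 0 without NCAR101, HEMI104 or HEMI105, 1 without NCAR102, 33 without NCAR103 and 16 without HEMI106.

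Rpl37, a protein of the large subunit, had the lowest p of the list. Its log2 intensities were 11.87, 11.66 and 11.63 with non-carrier serum and 11.23, 11.44 and 11.46 with carrier serum. The groups did not overlap, and NCAR101 was the highest and HEMI104 the lowest. The log2 difference was -0.34 (SE 0.107, limma adjusted p = 0.910), and with array weights it was -0.35 (adjusted p = 0.00731). Rps3, a small-subunit protein at the entry of the mRNA channel, read 10.87, 10.76 and 10.53 against 10.30, 10.42 and 10.38. Its groups were also apart, by -0.35 (SE 0.117, limma adjusted p = 0.910, and with array weights adjusted p = 0.00731). Rps4x, on the X chromosome, read 11.38, 11.24 and 11.18 against 10.92, 11.08 and 11.01, again without overlap. Its difference was -0.26 (SE 0.0836, and with array weights adjusted p = 0.0324). Rpl15 read 11.59, 11.54 and 11.42 against 11.22, 11.31 and 11.28, a difference of -0.25 (SE 0.0816, and with array weights adjusted p = 0.0136). Across these 4 genes, each carrier array lay below each non-carrier array. Not all members followed. Rps6, the ribosomal protein phosphorylated by S6 kinase, differed by 0.02 and Rpl4 by 0.05, and the largest positive difference, 0.27, was that of Rpl39l, a testis-enriched copy of Rpl39 that was dim on these arrays. Many ribosomal protein genes have near-identical pseudogenes, so how far the probes of each gene also read its copies is uncertain.

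The mean log2 intensity of the 77 genes was 11.14 in NCAR101, 11.05 in NCAR102 and 10.996 in NCAR103, and 10.85, 10.90 and 10.90 in HEMI104, HEMI105 and HEMI106. All 3 carrier arrays were thus below all 3 non-carrier arrays, and NCAR101 stood highest. With 1 array left out at a time the median difference of the list lay between -0.23 and -0.15. In the 8 other runs the median difference of the list lay between -0.14 and 0.07, so this run had the lowest median of the 9 runs. The difference from the mean of the other runs was tested gene by gene. It had an unadjusted limma p under 0.05 in 17 of the 77 genes, and in 506 of all 19613 genes. The adjusted p was under 0.05 in 0 of the 77 and in 0 of all genes (percent called 0), with a smallest adjusted p over all genes of 0.406. The lower median of this list is therefore given as a description.

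**Figure D2:**
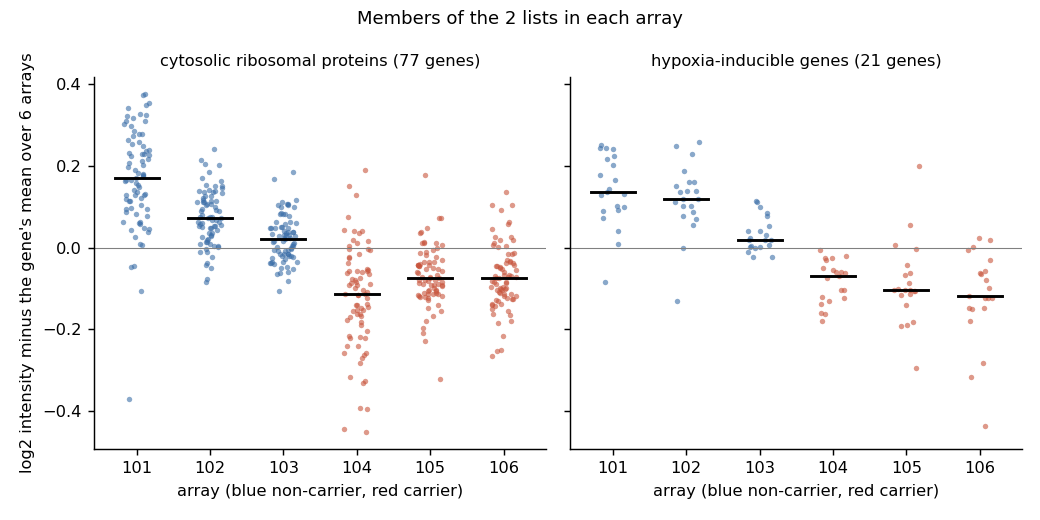
Points are genes, shown in each of the 6 arrays (x axis, by the number in the title) as the log2 intensity minus the mean of that gene over the 6 arrays (y axis). Black lines are medians of the list in an array, which lie above 0 in the 3 non-carrier arrays (blue) and below 0 in the 3 carrier arrays (red) for both lists, with NCAR103 nearest to 0.

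Ribosomal protein mRNAs are known for a run of pyrimidines at their first bases, through which mTOR controls their translation. In the RefSeq promoter windows (GRCm38.p6, 250 bases before to 50 after each start), a C at the start followed by at least 4 pyrimidines was present in 13 of the 57 ribosomal protein genes with a window (22.8%), against 2.78% of the 15261 distinct RefSeq genes that were measured and had a window (15272 array symbols, some of which share a gene). The search was chosen after the values were seen and read the sense strand only. It matched only at the annotated first base, so a gene whose annotated start is slightly off counts as lacking the run. The starts of the 3 members of lowest p among those that hold the run are shown here with 10 bases before and 20 from the start, the run in capitals, for Rpl15 (chr14:18270967-18270996, minus strand), Rpl35a (chr16:33056472-33056501, plus strand) and Rps15a (chr7:118116128-118116157, minus strand).
Rpl15: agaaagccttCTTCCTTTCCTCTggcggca
Rpl35a: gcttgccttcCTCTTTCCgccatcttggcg
Rps15a: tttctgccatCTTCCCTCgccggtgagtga
Rpl35a was lower by a log2 difference of -0.34 with the groups apart, and Rps15a had a difference of -0.20 with groups that overlapped.

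Lists for other parts of protein synthesis and decay had medians nearer to 0. Mitochondrial ribosomal proteins (70 genes) had a median difference of -0.04, with 51 below 0 and 16 (22.9%, against 8.07% of all genes and 15.1% of genes about as bright) apart and lower. Translation initiation factors (55 genes) had a median of -0.04, with 11 (20%, against 8.07% of all genes and 13.0% of genes about as bright) apart and lower. Proteasome subunits (36 genes), which degrade proteins, had a median of -0.04 with 7 (19.4%, against 8.07% and 13.0%) apart and lower. These lists were added after the data were seen.

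Hypoxia-inducible genes also lay mostly below 0. Of 21 genes, 20 (95.2%) had a difference below 0, against 43.5% of all genes and 52.8% of genes about as bright. In 18 (85.7%) all carrier arrays lay below all non-carrier arrays, against 8.07% of all genes and 14.6% of genes about as bright. The median difference was -0.18. Of the 21, 3 had an unadjusted limma p under 0.05 (14.3%, against 2.54% of all genes), 16 did so in the fit of the 6 arrays alone (76.2%, against 4.23%), and 0 passed after adjustment, with array weights or without them, although 1 passed as lower in the weighted fit without NCAR103.

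Pgk1, the glycolytic enzyme phosphoglycerate kinase, had the lowest p of this list. It read 12.35, 12.30 and 12.17 with non-carrier serum and 12.13, 12.07 and 12.09 with carrier serum, so the groups were apart by a narrow gap. The log2 difference was -0.18 (SE 0.0830, limma adjusted p = 0.9995). Hk2, the hexokinase induced in hypoxia, read 9.12, 9.04 and 8.97 against 8.75, 8.70 and 8.77, a difference of -0.30 (SE 0.180). Pfkfb3, which makes the activator of phosphofructokinase, read 10.41, 10.40 and 10.38 against 10.17, 10.18 and 10.13, a difference of -0.24 (SE 0.175). In both genes the gap between the groups was wider than the range within either group. Ero1l, an oxidase that forms disulfide bonds in the endoplasmic reticulum, read 10.92, 10.87 and 10.72 against 10.52, 10.49 and 10.56. Ankrd37, a direct target of hypoxia-inducible factor, read 7.58, 7.62 and 7.39 against 7.18, 7.32 and 7.08, and Ndrg1, a stress-induced gene with the largest difference of the list (-0.40, SE 0.255), read 9.80, 9.81 and 9.67 against 9.53, 9.42 and 9.12. Each of these genes was lower in all 3 carrier arrays, with the lowest value in HEMI106 for Ankrd37 and Ndrg1. Vegfa, the vascular growth factor, differed by -0.19, the glucose transporter gene Slc2a1 by -0.16, and the mitochondrial kinase gene Pdk1 by -0.24, each with groups apart. Car9, a carbonic anhydrase that is strongly induced in hypoxia, was the exception. It was dim and read 5.57, 5.52 and 5.69 against 5.60, 5.85 and 5.68, a difference of 0.12 with groups that overlapped.

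Binding of hypoxia-inducible factor needs a short core, ACGTG or GCGTG. Read on both strands of the promoter windows, it was present in 20 of the 20 genes of the list that had a window (81.2% of their 32 windows), against 55.4% of the 15261 genes (51.8% of 18724 windows). This motif was chosen after the values were seen, it is short, and its presence does not show binding. The 200 bases before the start are printed for the 4 members of lowest p that hold a core there, with the cores in capitals, an overlapping pair joined (on the strand shown, or as CACGT or CACGC for the other), for Pgk1 (chrX:106186900-106187099, plus strand), Aldoa (chr7:126799255-126799454, minus strand), Ankrd37 (chr8:45999851-46000050, minus strand) and Ero1l (chr14:45318573-45318772, minus strand).
Pgk1: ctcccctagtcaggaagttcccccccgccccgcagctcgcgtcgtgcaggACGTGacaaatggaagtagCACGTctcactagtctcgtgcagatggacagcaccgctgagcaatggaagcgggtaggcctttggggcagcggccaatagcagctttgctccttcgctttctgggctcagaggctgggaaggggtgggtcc
Aldoa: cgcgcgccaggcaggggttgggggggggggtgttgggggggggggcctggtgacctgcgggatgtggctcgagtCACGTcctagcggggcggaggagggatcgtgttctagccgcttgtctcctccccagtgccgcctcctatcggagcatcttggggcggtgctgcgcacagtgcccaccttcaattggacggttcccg
Ankrd37: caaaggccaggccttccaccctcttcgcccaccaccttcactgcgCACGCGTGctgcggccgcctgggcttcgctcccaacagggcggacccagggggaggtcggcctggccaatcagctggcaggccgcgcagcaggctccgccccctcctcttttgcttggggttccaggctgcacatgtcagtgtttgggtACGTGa
Ero1l: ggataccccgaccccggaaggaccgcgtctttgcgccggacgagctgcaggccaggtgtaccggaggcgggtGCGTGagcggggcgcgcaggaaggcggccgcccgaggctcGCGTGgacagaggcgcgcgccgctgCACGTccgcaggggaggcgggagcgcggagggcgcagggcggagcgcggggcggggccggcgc
Aldoa, the aldolase of glycolysis, read 12.59, 12.59 and 12.54 against 12.43, 12.42 and 12.37, a log2 difference of -0.17 (SE 0.0798) with the groups apart.

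The same direction was found in glycolysis genes outside that list. All 12 had a difference below 0, with a median of -0.17. Of the 12, 10 (83.3%) had carrier arrays all below non-carrier arrays, against 8.07% of all genes and 14.6% of genes about as bright. This list too was added after the data were seen. The core searched above was present in 8 of the 11 genes of this list with a window (72.7%), against 55.4% of all measured genes with a window. By windows it was 68.8% of 16, against 51.8%. Pfkm, a phosphofructokinase, read 9.38, 9.36 and 9.35 against 9.17, 9.19 and 9.18, a difference of -0.18 (SE 0.0581, limma adjusted p = 0.910) that passed with array weights (adjusted p = 0.0234). Tpi1, triosephosphate isomerase, read 12.24, 12.24 and 12.18 against 12.06, 12.07 and 12.02. Eno2, the neuronal enolase, read 11.48, 11.46 and 11.35 against 11.21, 11.10 and 10.93, a difference of -0.35 (SE 0.163). In each of the 3 the highest carrier array lay below the lowest non-carrier array. Among the 37 subunits of complex I of the respiratory chain, 28 were below 0 with a median of -0.09. Of the 37, 8 (21.6%, against 8.07% of all genes and 14.6% of genes about as bright) were apart and lower. Ndufv1, which binds NADH, was lower by a log2 difference of -0.25 and passed with array weights (adjusted p = 0.00754). Ndufb2 differed by 0.63 and Uqcr11 of complex III by 0.70, with groups that overlapped, and both passed as higher with array weights (adjusted p = 0.0476 and adjusted p = 0.00731). Of 17 cytochrome c oxidase subunits 14 were below 0 (median -0.06), and 6 (35.3%, against 13.0% of genes about as bright) were apart and lower. Of 16 ATP synthase subunits 12 were below 0 (median -0.08), and 5 (31.2%, against 14.6% of genes about as bright) were apart and lower. These 2 lists were also added after the data were seen.

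For both sugar-metabolism lists the other runs showed a wide range. The median of the hypoxia-inducible genes lay between -0.35 and 0.15 over the 9 runs and that of the other glycolysis genes between -0.27 and 0.05, and this run had the third lowest median in each. No gene of either list had an adjusted p under 0.05 for the difference from the mean of the other runs.

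**Figure D3:**
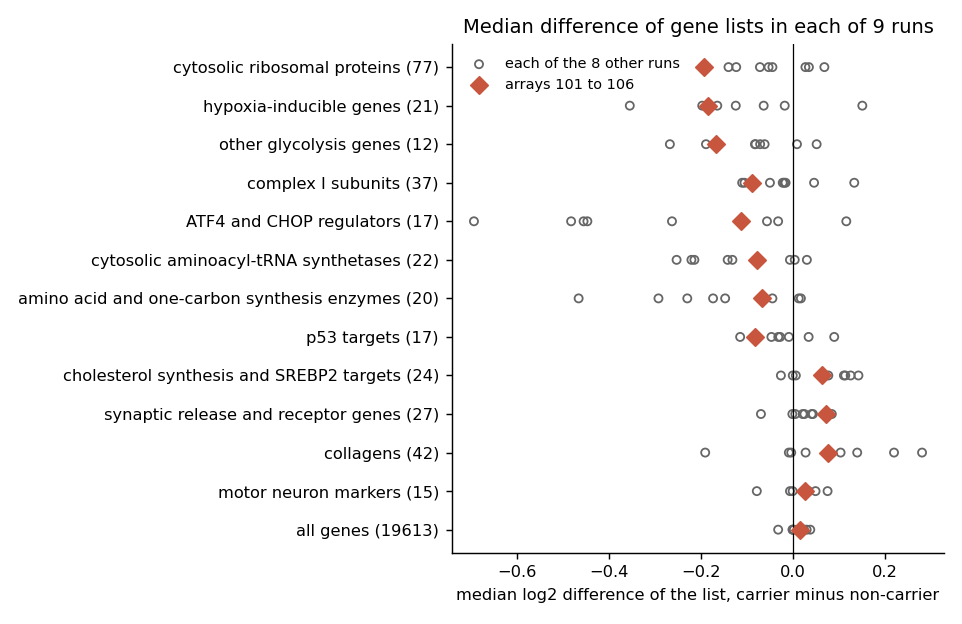
The x axis gives the median log2 difference, carrier minus non-carrier, of the genes of each list (y axis, number of genes measured in brackets), as a red diamond for this run and as open circles for each of the 8 other runs. The diamond is the lowest point for cytosolic ribosomal proteins and lies within the range of the other runs for the remaining lists.

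Genes of the ATF4 and CHOP pathway lay mostly below 0, by small amounts. Of 17 regulators and direct stress-response genes, 15 (88.2%) were below 0, against 43.5% of all genes and 58.3% of genes about as bright. The median was -0.11. Of the 17, 5 (29.4%) were apart and lower, against 8.07% of all genes and 13.2% of genes about as bright. Over the 8 other runs the median was -0.30 and 13 of the 17 genes passed as lower, against 1.33% of all genes. The runs differed, with medians of the list from -0.69 to 0.12 over the 9 runs, among which this run ranked 6 from the lowest. None of the 17 passed in this run, and 0 had an adjusted p under 0.05 for the difference between this run and the others. Atf4 itself read 9.71, 9.66 and 9.52 with non-carrier serum and 9.59, 9.52 and 9.57 with carrier serum. The groups overlapped, and the difference was -0.07 (SE 0.124), beside -0.30 in the other runs. Ddit3, which encodes CHOP, read 8.32, 7.89 and 7.79 against 7.81, 7.57 and 7.67, with overlapping groups and NCAR101 the highest, a difference of -0.31 (SE 0.203). Atf3, a target of both, read 7.13, 6.83 and 6.86 against 6.58, 6.81 and 6.62, with the groups just apart. Its difference was -0.27 (SE 0.230). Herpud1, which acts in the degradation of endoplasmic reticulum proteins, read 8.70, 8.70 and 8.68 against 8.52, 8.59 and 8.51, a difference of -0.15 (SE 0.146). Chac1, which degrades glutathione and is strongly induced by ATF4, differed by -0.02 in this run and by -0.53 over the other runs, but the test of that contrast did not pass (limma adjusted p = 0.9999).

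Differences of the enzymes that ATF4 induces were also small and mostly below 0. Of 22 cytosolic aminoacyl-tRNA synthetase genes, which charge tRNAs with amino acids, 20 (90.9%) were below 0, against 43.5% of all genes and 56.3% of genes about as bright. Their median was -0.08 (-0.05 without NCAR101). Of the 22, 8 (36.4%) were apart and lower, against 8.07% of all genes and 13.0% of genes about as bright. Farsa, a subunit of the phenylalanine enzyme, read 9.02, 8.99 and 8.96 against 8.83, 8.89 and 8.79, a difference of -0.15 (SE 0.0659, limma adjusted p = 0.9995). Among 20 genes of amino acid and one-carbon synthesis, 14 (70%, against 57.7% of genes about as bright) were below 0. Of the 20, 8 (40.0%) were apart and lower, against 8.07% of all genes and 15.1% of genes about as bright. Asns, asparagine synthetase, read 10.87, 10.92 and 10.88 against 10.71, 10.83 and 10.77, a difference of -0.12 (SE 0.143) with the groups apart. Pycrl, which makes proline, read 8.17, 8.14 and 8.18 against 7.84, 7.85 and 7.97, a difference of -0.27 (SE 0.0917, limma adjusted p = 0.910) that passed with array weights (adjusted p = 0.0116). Shmt2, which feeds the mitochondrial folate cycle from serine, read 10.03, 9.94 and 9.95 against 9.69, 9.74 and 9.63 and had nearly the same difference here (-0.28) as over the other runs (-0.26). Of the 17 amino acid transporter genes 12 were below 0, with a median of -0.02 that became -0.06 without NCAR101 and -0.08 with the 4 motor neuron genes of the study as covariates, and the cationic transporter gene Slc7a3 differed most (-0.31, SE 0.227). Of the genes that the study used in a classifier, 76.1% were below 0, against 43.5% of all genes and 57.7% of genes about as bright. Of these classifier genes, 42 (31.3%) were apart and lower, against 8.07% of all genes and 15.1% of genes about as bright. The study chose them on arrays that include these 6, so their direction is no independent evidence.

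The C/EBP-ATF response core, searched on either strand with 1 free base, was present in the windows of 6 of 16 ATF4 and CHOP regulators (37.5%), 5 of 16 cytosolic synthetases (31.2%) and 3 of 16 synthesis enzymes (18.8%), against 3.66% of the 15261 genes. The endoplasmic reticulum stress element (CCAAT, then 9 bases, then CCACG, either strand) was present in 9 of 21 genes for chaperones and degradation in that organelle (42.9%), against 0.164% of the genes. That list had a median difference of 0.02. Of its 23 genes, 1 was apart and lower (4.35%, against 8.07% of all genes and 13.0% of genes about as bright). The sterol regulatory element was searched only as a short fixed sequence, also on either strand. That sequence was found in 0 of 16 cholesterol genes and in 0.629% of the genes. Other forms of the element were not searched, so this count does not show that the cholesterol genes lack it.

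The genes that passed the threshold over the other 8 runs were chosen on the mean difference in those runs, although the 6 arrays of this run entered the shared estimate of spread and were normalized with the rest. Of 19613 genes, 260 (1.33%) were lower and 89 (0.454%) higher with carrier serum there. In this run, 83.1% of the 260 were below 0 and 87.6% of the 89 above 0, which makes 294 of 349 (84.2%) with the same sign, against 66.6% of all genes. Of the 260, 89 (34.2%) had carrier arrays all below non-carrier arrays, against 8.07% of all genes and 15.1% of genes about as bright. Of the 89 higher genes, 28 (31.5%) had them all above, against 8.61% of all genes and 5.81% of genes about as bright. The median difference in this run was -0.07 for the 260 genes and 0.09 for the 89. Across all genes, which are not independent replicates and were normalized together over the 59 arrays, the differences in this run and the mean differences of the other runs had a Pearson correlation of 0.342.

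**Figure D4:**
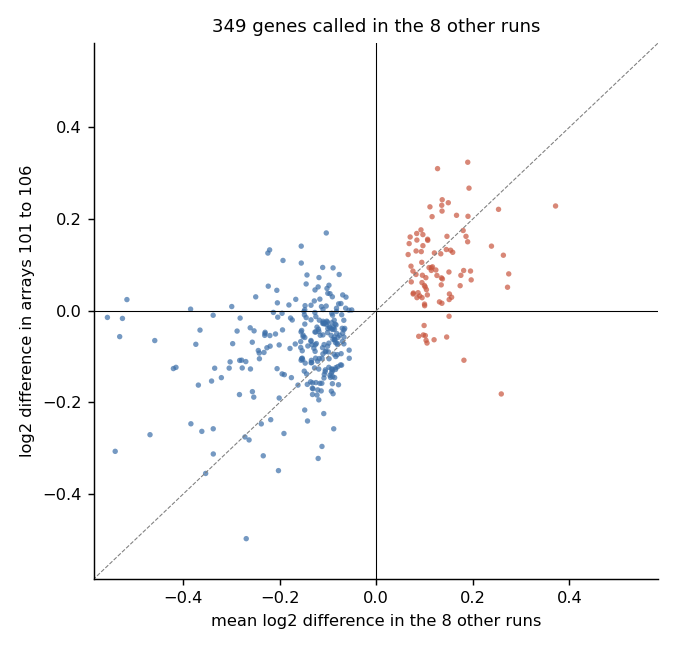
Each point is 1 of the 349 genes that passed an adjusted p of 0.05 over the 8 other runs, with the mean log2 difference there (x axis) and the difference in this run (y axis). Blue points were lower and red points higher in the other runs, 294 of 349 lie in the quadrants of equal sign, and the dashed line marks equal differences.

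Differences of neuronal genes were small, and 56.5% of all genes were above 0. Of 27 genes of synaptic release and receptors, 20 (74.1%) were above 0 with a median of 0.07 (0.04 without NCAR101), and 5 (18.5%, against 8.61% of all genes) were apart and higher. Snap25, part of the complex that fuses synaptic vesicles, read 11.64, 11.78 and 11.66 against 11.89, 11.82 and 11.85, a difference of 0.16 (SE 0.0546, limma adjusted p = 0.910). Among 13 neurofilament, tubulin and axon genes, 5 had an unadjusted limma p under 0.05, all higher (38.5%, against 2.04% of all genes), but in the fit of the 6 arrays alone only 1 did (7.69%, against 5.45% of all genes), and 6 of the 13 were below 0. The light neurofilament gene Nefl read 12.25, 12.35 and 12.28 against 12.44, 12.39 and 12.40, a difference of 0.12 (SE 0.0408), and the heavy one, Nefh, read 8.75, 8.69 and 8.75 against 8.99, 8.94 and 8.79, a difference of 0.17 (SE 0.0713) that passed with array weights (adjusted p = 0.0292). In all 3 genes the groups were apart. The tubulin genes Tubb2b (-0.12) and Tubb3 (-0.04) differed the other way.

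The genes by which the study tracked the make-up of its neurons did not pass the test. Olig2, of motor neuron progenitors, read 8.89, 9.04 and 8.99 against 9.03, 8.98 and 8.96 (difference 0.02, SE 0.0874). Mnx1, which encodes HB9, read 8.56, 8.65 and 8.69 against 8.64, 8.76 and 8.65 (0.05, SE 0.114), and Isl1 read 10.32, 10.32 and 10.29 against 10.38, 10.29 and 10.34 (0.03, SE 0.0555). These 3 overlapped between the groups. Lhx3, the partner of Isl1 in spinal motor neurons, read 9.05, 9.05 and 9.04 against 8.85, 8.95 and 8.93, with all carrier arrays lower (-0.14, SE 0.0898, limma adjusted p = 0.9995). Of 15 motor neuron markers 10 (66.7%, against 56.5% of all genes) were above 0. The choline transporter gene Slc5a7, needed for acetylcholine synthesis, read 8.01, 8.21 and 8.29 against 8.48, 8.44 and 8.61, a difference of 0.34 (SE 0.130, limma adjusted p = 0.988). The neurotrophin receptor gene Ngfr differed by 0.19 and passed with array weights (adjusted p = 0.0345). The mean log2 intensity of the 13 pluripotency markers was 5.88 to 5.96 with non-carrier and 5.84 to 6.03 with carrier serum, that of the 11 glial markers 8.10 to 8.23 and 8.24 to 8.25, and that of the 8 blood cell markers 5.85 to 6.02 and 5.81 to 6.09. The glial mean was higher in all 3 carrier arrays, and the other 2 means overlapped. The means of the 15 progenitor markers (8.46 to 8.52 and 8.48 to 8.50), the 16 interneuron markers (7.48 to 7.56 and 7.47 to 7.55) and the 20 mesoderm and endoderm markers (6.33 to 6.39 and 6.32 to 6.45) overlapped too. No marker of these 6 lists passed in either direction. The part of these cells in the results above was not tested. Intensities of different genes cannot be compared on these arrays, so the presence of motor neurons is taken from the study and the labels. The paper describes bright HB9-eGFP fluorescence in fully induced embryoid bodies, and a count of fluorescent cells in a single batch. It does not say which batch was counted. Sod1, the mouse gene, read 11.77, 11.74 and 11.74 against 11.56, 11.69 and 11.67, a difference of -0.11 (SE 0.0771, limma adjusted p = 0.9995). The cells did not carry the transgene of the serum donors, so Sod1 does not check the labels.

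Among smaller groups, for which the share of all genes above 0 was 56.5%, 18 of 24 cholesterol synthesis genes were above 0 with a median of 0.06 (0.02 without NCAR101). Hsd17b7, an enzyme of that pathway, read 8.95, 9.12 and 9.17 against 9.40, 9.35 and 9.29, a difference of 0.27 (SE 0.0917, limma adjusted p = 0.910), and it was below 0 in 0 of the 9 runs. Of 27 genes of cell cycle and DNA replication 24 were above 0, with a median of 0.04 that turned to -0.0026 without HEMI106 and was 0.09 without HEMI104, and Ube2c, which drives exit from mitosis, differed by 0.22. Of 42 collagen genes 38 were above 0, with a median of 0.08, but most were dim and their median fell to 0.05 once the median of equally bright genes was subtracted. Of 17 p53 target genes 13 were below 0, with a median of -0.08. Of 24 interferon-stimulated genes 18 were above 0 with a median of 0.07, which became 0.01 after the same subtraction.

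The genes of lowest p whose groups did not overlap, among those brighter than the median, are given as values, since none passed in the unweighted fit. Ino80c, a subunit of the INO80 chromatin remodeller, read 8.35, 8.45 and 8.41 with non-carrier serum and 8.76, 8.72 and 8.92 with carrier serum. Its difference was 0.39 (SE 0.0882, limma adjusted p = 0.759, and with array weights adjusted p = 0.00731), against 0.03 over the other runs. Without the 11 arrays of the largest run in the fit, its limma adjusted p = 0.183 and 0 genes passed. Mt2, a metallothionein that binds zinc and is induced by metals and glucocorticoids, read 10.91, 11.11 and 11.23 against 11.50, 11.58 and 11.58, a difference of 0.47 (SE 0.141, with array weights adjusted p = 0.0134), against -0.05 over the other runs. Ywhab, a 14-3-3 protein gene, read 11.03, 11.17 and 11.17 against 11.23, 11.35 and 11.42. The other higher genes were Slc25a38, which carries glycine into mitochondria for haem synthesis, D14Ertd449e (now Tmem254a), Trp53bp2, Tfg, Ap1ar, Ppp4r1 and St6gal2, with differences from 0.15 to 0.34. With array weights all of these but Tfg and Ap1ar passed.

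On the lower side stood Zfas1 (1500012F01Rik), a non-coding RNA that hosts small nucleolar RNAs, which read 9.83, 9.61 and 9.51 against 9.01, 9.17 and 9.28. Its difference was -0.50 (SE 0.135, limma adjusted p = 0.759, and with array weights adjusted p = 0.00731), and it was -0.27 over the other runs. Prmt8, a neuronal arginine methyltransferase, read 8.75, 8.80 and 8.69 against 8.48, 8.52 and 8.44, a difference of -0.27 (SE 0.0707). It was below 0 in 8 of the 9 runs and was the only gene to pass when Olig2, Mnx1, Isl1 and Lhx3 were added to the fit (adjusted p = 0.0202). Foxo3, a transcription factor held in the cytoplasm by insulin signals, read 9.06, 8.95 and 8.90 against 8.67, 8.68 and 8.59, a difference of -0.32 (SE 0.0859). It too was below 0 in 8 of the 9 runs. Tsr3 (0610007P22Rik), which modifies ribosomal RNA, differed by -0.38, and Rab3ip, Psrc1, Mvb12a (Fam125a), Fbxl20, Tcta and Cryz by -0.36 to -0.23. All of these lower genes passed with array weights.

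**Figure D5:**
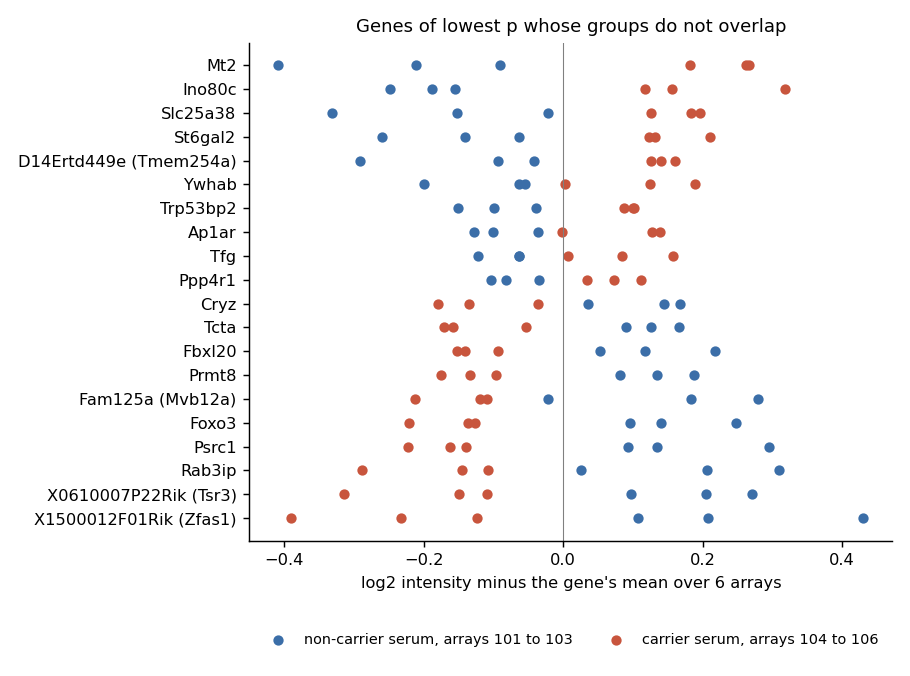
The 20 genes (y axis) are the 10 of lowest p in each direction with non-overlapping groups and an intensity above the median, and the x axis gives each array's log2 intensity minus the mean of the gene over 6 arrays. Blue points are NCAR101 to NCAR103 and red points HEMI104 to HEMI106, and the gap between the colours is narrowest for Ap1ar and Ywhab and widest for Ino80c and Mt2.

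The test of the difference from the other runs, which called 0 genes in the unweighted fit, called 4 with array weights. These were Cpne4 (adjusted p = 0.0107), Fen1 (adjusted p = 0.0138), Fam65b (adjusted p = 0.0247) and Uqcr11 (adjusted p = 0.0300), named here after their values were seen. Cpne4, Fen1 and Fam65b had mean log2 intensities of 5.90, 6.37 and 7.26, below the 7.32 of the median gene. The leave-one-out counts of the weighted fit given above do not cover these 4 calls. Cpne4, a calcium-dependent membrane-binding protein gene, read 5.68, 5.81 and 5.74 against 5.98, 6.14 and 6.03, a log2 difference of 0.31 against -0.06 over the other runs. Fam65b read 7.41, 7.34 and 7.29 against 7.20, 7.16 and 7.13, a difference of -0.19 against 0.05. Fen1, a nuclease of DNA replication, read 6.24, 6.19 and 6.23 against 6.62, 6.40 and 6.55, a difference of 0.31 against -0.03. Uqcr11 read 8.14, 8.20 and 9.04 against 9.19, 9.33 and 8.97, so that NCAR103 lay with the carrier arrays.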

How the data were processed

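Embryoid bodies were assayed on Affymetrix mouse exon arrays. The deposited intensities are on a linear scale. The authors made them by RMA (aroma.affymetrix) over training and test arrays together, averaged the exons of each gene, and removed outlier arrays before deposit. The genome build is not given in the sources used here. The number of arrays limits the precision.

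Log2 intensities of 19613 genes were analysed with limma 3.58.1 (R 4.3.3) with a pseudocount of 0. One mean per run and kind of serum (9 runs, 59 arrays, 41 residual degrees of freedom) was fitted with lmFit and eBayes, and carrier minus non-carrier was tested two-sided within the 6 arrays of this run, and against the mean of the 8 other runs, with the Benjamini-Hochberg method applied to all 19613 genes (adjusted p under 0.05). Genes are called apart where all 3 carrier arrays lie beyond all 3 non-carrier arrays. An exact permutation test of 3 against 3 arrays cannot go below 0.10. The code was tested on simulated data.

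The members, gene lists and named genes were chosen with earlier results of these data known. Named genes are, in each direction, the 10 of lowest p (none passed) that were apart and brighter than the median, the member of lowest p of each list, and 10 genes of the motor neuron and stress programmes. Of the symbols, 19204 matched RefSeq (GRCm38.p6), from which the promoter windows come. In the files, symbols that begin with a digit carry an X (1065 names), left out here. Columns used belong to the 59 arrays of the series (0 other columns). Alternatives varied the arrays in the fit, normalization between arrays, filter, variance model, array weights, covariates, pseudocount (16) and each of the 6 arrays left out.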

Additional observations from a re-analysis of the deposited data

How the results depend on the processing

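With array weights 225 genes passed (72 higher and 153 lower) and 4 differed from the other runs, and with each array of the weighted fit left out in turn the count of passing genes went from 0 to 529. With the 4 motor neuron genes of the study (Olig2, Mnx1, Isl1, Lhx3) added as covariates 1 gene passed, which was lower (Prmt8). Under the same covariates the median difference of the cytosolic aminoacyl-tRNA synthetases was -0.11, that of the hypoxia-inducible genes -0.28 and that of the 260 genes lower in the other runs -0.088. Leaving out 1 array at a time in the unweighted fit gave 0 to 1 passing genes, 0 to 1 higher (Uqcr11, without NCAR103), medians of -0.097 to -0.047 for the synthetases and of -0.23 to -0.16 for the hypoxia-inducible genes, and a difference of -0.023 to 0.051 for Olig2, which turned negative without NCAR101 (-0.023) and without HEMI104 (-0.0018). The cause was not tested. In every other alternative listed in the processing summary, 0 genes passed, and the median of the cytosolic ribosomal proteins stayed below 0. The median SE of a gene was 0.104 on the log2 scale, beside an SD of the differences over genes of 0.126. No paired analysis was possible because the carrier and non-carrier arrays of this run carry different numbers in their titles.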
